A study of Mus musculus with 58 samples.

Results

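Patch pipettes drew cytosol from single labelled interneurons of mouse ventral subiculum, and some of these harvests carried RNA of microglia beside that of the neuron. The harvests were sorted here by C1qb, a subunit of the complement protein C1q that microglia make in the brain. A harvest was C1qb-high at 100 CPM or more and C1qb-low at 10 CPM or less, where CPM (scaled counts) is a gene's count over all counts of the cell, times 1000000. Of 58 sequenced cells, 54 were labelled Pass in quality control. Of these, 20 were C1qb-high, 15 were C1qb-low and 19 lay between. The C1qb-high harvests were 6 cells of male P35, 2 of male P36, 11 of female P40 and 1 of female P42 mice. The C1qb-low harvests were 3 cells of male P35, 8 of male P36, 2 of female P40 and 2 of female P42 mice (P is the postnatal day). The strain label of every cell on both sides is PV-Cre::Ai9, in which Cre under control of the parvalbumin gene switches on a red reporter, and the labels name no treatment. The animals were 4 males and 3 females, and no label ties a cell to its animal. The reporter marks any cell that has used the parvalbumin promoter, so it does not fix the present Pvalb level.

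Microglia are the resident macrophages of the brain. They depend on the receptor Csf1r, survey neurons with thin processes through receptors such as P2ry12 and Cx3cr1, and tag and clear synapses with complement and lysosomal enzymes. PV interneurons are GABAergic, fast-spiking cells. Neurons send the ligands of some of the microglial receptors: Cx3cl1 binds Cx3cr1, and Csf1 and Il34 bind Csf1r.

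C1qb lies on chromosome 4 between 136880129 and 136886187 on the minus strand of GRCm38, beside C1qc at 136889804 to 136893065 and C1qa at 136895917 to 136898803. Many myeloid genes are known to be driven by the transcription factor PU.1, product of Spi1, whose motif holds the core GAGGAA. The RefSeq promoter windows of GRCm38.p6, from 250 bases before to 50 bases after the gene start, were searched for that core on both strands. They are shown for C1qb, on which the harvests were selected, and for those of the 6 genes that rose in C1qb-high harvests (given further on) that hold the core. An entry that may be printed was present for 4 of these 7 genes, and 3 held 1 match each. Cx3cr1 had an entry with 0 matches, and Cd14 and Selplg are named only. Capitals mark the core or its reverse complement. The windows are chr4:136886151-136886450 (minus strand) for C1qb, chr2:129309923-129310222 (minus strand) for Il1a and chr4:130913066-130913365 (plus strand) for Laptm5.
C1qb: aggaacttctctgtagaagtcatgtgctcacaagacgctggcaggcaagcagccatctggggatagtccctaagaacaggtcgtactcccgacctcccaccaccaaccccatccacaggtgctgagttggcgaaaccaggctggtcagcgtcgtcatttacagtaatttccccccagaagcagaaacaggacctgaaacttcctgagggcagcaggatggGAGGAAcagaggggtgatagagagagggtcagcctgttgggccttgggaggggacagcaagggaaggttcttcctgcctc
Il1a: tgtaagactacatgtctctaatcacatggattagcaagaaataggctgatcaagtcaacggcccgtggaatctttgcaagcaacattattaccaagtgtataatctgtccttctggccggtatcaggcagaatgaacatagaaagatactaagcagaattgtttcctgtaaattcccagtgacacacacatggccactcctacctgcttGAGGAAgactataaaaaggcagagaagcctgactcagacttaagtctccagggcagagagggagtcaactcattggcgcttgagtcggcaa
Laptm5: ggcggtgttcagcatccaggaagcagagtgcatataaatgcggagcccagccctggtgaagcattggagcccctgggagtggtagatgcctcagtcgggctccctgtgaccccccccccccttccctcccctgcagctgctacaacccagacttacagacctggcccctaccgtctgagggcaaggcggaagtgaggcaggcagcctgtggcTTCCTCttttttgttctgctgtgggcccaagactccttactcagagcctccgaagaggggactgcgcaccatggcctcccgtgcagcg
The same core stands in 28.3% of all 32851 promoter windows of this length, so a match describes the letters and no more.

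C1qb spread over the Pass cells without a gap. It was 130 to 2593 CPM in C1qb-high harvests, with a median of 190 CPM, against 0.463 to 9.84 CPM in C1qb-low harvests, with a median of 2.96 CPM. The next cell below the upper limit had 94.4 CPM, and the next above the lower limit had 12 CPM. No Pass cell had 0 C1qb counts, and C1qb-low harvests still held 10 to 274 counts each. These values chose the sides and are not tested. By sex, 12 of 27 female and 8 of 27 male Pass cells were C1qb-high, and 4 female and 11 male cells were C1qb-low. Sex cannot be told apart from age here, since each age was sampled in 1 sex only.

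**Figure D1:**
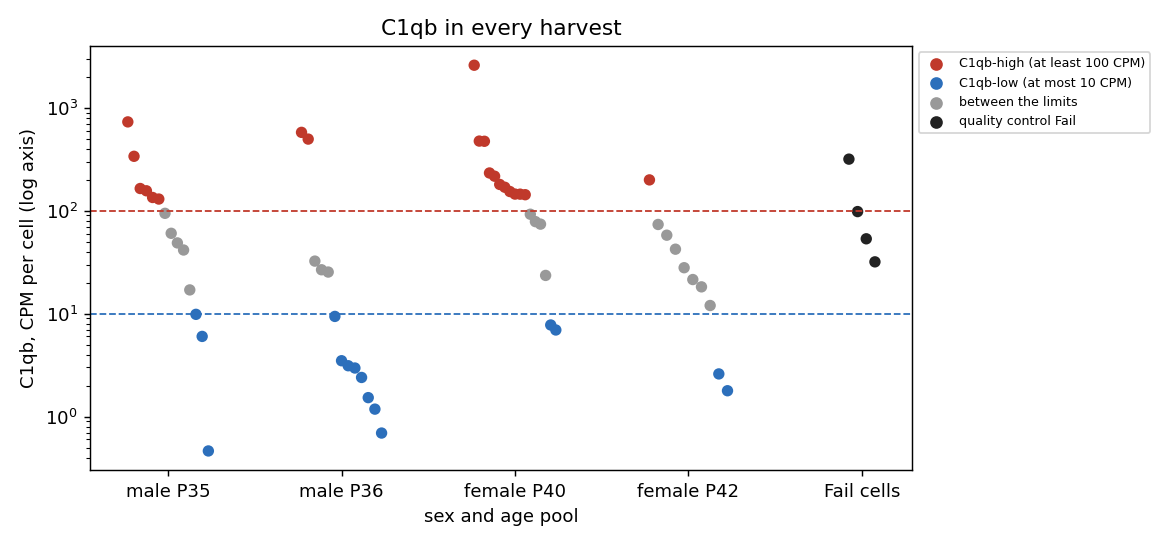
C1qb per cell in CPM on a log axis, in each sex and age pool and in the 4 Fail cells; each point is 1 cell, coloured by side, and the dashed lines are the limits of 100 and 10 CPM. Every pool holds cells of both sides, with 11 of the 20 C1qb-high cells in female P40 and 8 of the 15 C1qb-low cells in male P36.

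Total counts per cell (M, counts in units of 1000000) were 2.05 to 17.4M in C1qb-high harvests, with a median of 8.84M, against 2.77 to 28.9M in C1qb-low harvests, with a median of 11.9M. Genes with at least 1 count had medians of 12950 in C1qb-high and 12931 in C1qb-low cells. The log2 of total counts had a mean difference of -0.90 over the 3 pools that follow (two-sided exact permutation p = 0.25, the smallest that 3 pools allow). Counts were summed per side within each pool that had at least 2 cells on each side, which were male P35, male P36 and female P40. The female P42 pool had 1 C1qb-high cell and stayed out. The test was edgeR's quasi-likelihood test over these 3 pools with pool as a block, on 13450 genes without C1qb, with adjusted p under 0.05 as the threshold. Nothing says which cells of a pool share an animal, so p-values measure the spread between pools only. In harvested RNA, more microglial material and more RNA per microglial cell cannot be told apart.

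Of the genes tested, 6 were higher in C1qb-high harvests, which is 0.0446% of them, and 0 were lower, which is 0%. At an unadjusted p under 0.05, 440 genes were higher (3.27%) and 360 were lower (2.68%). DESeq2 on the same sums called 487 higher and 140 lower, and limma on the pools' mean log2(CPM + 1) called 11 higher and 0 lower. Calls and adjusted p given further on are edgeR's unless another tool is named. The median difference of all tested genes was 0.0037 on the log2 scale, and 50.3% of them had a positive one. Of the 6 genes, 5 are described here: the cytokine Il1a, the selectin ligand Selplg, the lysosomal membrane protein Laptm5, the fractalkine receptor Cx3cr1 and the lipopolysaccharide co-receptor Cd14. These are genes known from microglia or other myeloid cells, and Selplg, Laptm5 and Cx3cr1 stand on the lists of microglial markers used here.

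Cd14, Selplg, Il1a and Cx3cr1 had log2 differences between 5.79 and 6.26, and Laptm5 had one of 4.81. Il1a (chromosome 2, 129299610 to 129309972) had 149, 171 and 484 CPM in the C1qb-high sums of male P35, male P36 and female P40, against 1.73, 3.40 and 8.03 CPM in their C1qb-low sums, a log2 difference of 6.0 (SE 0.35, edgeR adjusted p = 0.0076). Its levels in single cells overlapped, with 0.0575 to 2928 CPM and a median of 18.9 CPM in C1qb-high cells and 0.12 to 73.4 CPM and a median of 2.51 CPM in C1qb-low cells. Selplg (chromosome 5, 113818536 to 113832644) had 68.9, 288 and 277 CPM in the C1qb-high sums, against 0.591, 6.36 and 4.59 CPM in the C1qb-low sums, a log2 difference of 6.07 (SE 0.44, adjusted p = 0.017). Per cell it was 0.287 to 1301 CPM with a median of 67.3 CPM in C1qb-high and 0.144 to 35.3 CPM with a median of 2.40 CPM in C1qb-low harvests. Thus 17 of the 20 C1qb-high harvests lay above every C1qb-low harvest in Selplg. Cx3cr1 (chromosome 9, 119901616 to 120069879), which takes up the neuronal ligand Cx3cl1, had 11.5, 189 and 131 CPM in the C1qb-high sums, against 0.182, 4.89 and 1.82 CPM in the C1qb-low sums, a log2 difference of 5.79 (SE 0.55, adjusted p = 0.038). In single cells it was 0.0730 to 612 CPM with a median of 32 CPM in C1qb-high and 0 to 34.6 CPM with a median of 0.944 CPM in C1qb-low harvests, so the sides overlapped. Cd14 had 28.4, 194 and 390 CPM in the C1qb-high sums, against 0.895, 1.06 and 5.06 CPM in the C1qb-low sums, a log2 difference of 6.26 (SE 0.61, adjusted p = 0.040). Most C1qb-high cells had little of it, with 0 to 2423 CPM and a median of 1.69 CPM, against 0 to 10.8 CPM and a median of 0.486 CPM in C1qb-low cells, and 1 C1qb-high cell held 86.9% of all Cd14 counts of the C1qb-high side.

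The lysosomal gene was present in most C1qb-high cells. Laptm5 (chromosome 4, 130913125 to 130936141) had 80.1, 221 and 269 CPM in the C1qb-high sums, against 3.59, 5.49 and 10.9 CPM in the C1qb-low sums, a log2 difference of 4.81 (SE 0.39, adjusted p = 0.022). Single C1qb-high cells had 0.536 to 1288 CPM of Laptm5 with a median of 81.8 CPM, and C1qb-low cells 0.173 to 37.1 CPM with a median of 1.84 CPM. At least 10 CPM of it was found in 16 of 20 C1qb-high cells and in 2 of 15 C1qb-low cells.

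A single harvest weighed heavily in these sums. The female P40 cell 9, the cell of highest C1qb, held 53.1% to 86.9% of the C1qb-high counts of each of these 5 genes. It had 2928 CPM of Il1a, 2423 CPM of Cd14 and 2111 CPM of Csf1r, and its Snap25 level, 2706 CPM, was the lowest of the 35 cells. Without it, 0 genes passed the threshold, with 361 higher and 326 lower at an unadjusted p under 0.05. The differences then were 4.80 for Il1a, 5.53 for Selplg, 4.25 for Laptm5, 5.24 for Cx3cr1 and 4.62 for Cd14 on the log2 scale. The adjusted p was 0.71 for Il1a, 0.37 for Selplg, 0.39 for Laptm5, 0.37 for Cx3cr1 and 0.91 for Cd14. Leaving out each of the other 31 cells in turn gave 4 to 11 genes higher and 0 lower, with 11 without male P35 cell 10. Leaving out a whole pool gave 19 genes higher without male P35, 1 (Il1a) without male P36 and 0 without female P40.

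Most microglial markers had positive differences. The 4 lists of microglial markers (complement and adhesion, surface receptors, lysosome and proteases, signalling and transcription) named 61 genes, of which 56 were tested. Of these, 53 had a positive difference, 43 were higher and 1 was lower at an unadjusted p under 0.05, 4 were called, and the median difference was 4.91, against 0.0037 over all genes. A filter on low counts passes such genes through the side where they are high, so the count describes the list and is no test of it. The surface receptors had a median difference of 6.07 (17 of 17 tested positive), signalling and transcription 4.92 (16 of 17), complement and adhesion 4.01 (7 of 7), and lysosome and proteases 3.37 (13 of 15). Without the female P40 cell 9 these medians were 5.38, 4.29, 3.48 and 2.92. Without the deepest cell of each pool and side, which again left out female P40 cell 9, they were 4.57, 3.26, 0.96 and 0.78. With limma on log2(CPM + 1), which weights every cell of a pool alike, they were 2.49, 1.70, 1.61 and 1.11. edgeR called 2 receptors, 0 signalling, 0 complement and 2 lysosomal genes, against 17, 15, 5 and 9 by DESeq2.

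Complement and the defining markers gave large differences that did not pass edgeR's threshold. C1qa, the partner subunit of C1qb, had 0.701 to 711 CPM in C1qb-high cells with a median of 61.7 CPM, against 0.249 to 17 CPM in C1qb-low cells with a median of 1.80 CPM (log2 difference 4.01, SE 0.48, adjusted p = 0.12). C1qc, the third chain, had a median of 112 CPM in C1qb-high and 8.02 CPM in C1qb-low cells (difference 4.59, adjusted p = 0.25). Female P40 cell 17, chosen by its 145 CPM of C1qb, stood apart, with 0.701 CPM of C1qa and 1.53 CPM of C1qc. The ratio of C1qa to C1qb counts ran over C1qb-high cells between 0.00483 and 1.89 with a median of 0.208.

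The receptors of microglia had differences of similar size. Csf1r, the receptor on which microglia depend, had a median of 67.8 CPM in C1qb-high and 20.4 CPM in C1qb-low cells (difference 3.27, SE 0.46, adjusted p = 0.15). P2ry12, the ADP receptor of resting microglia, had a median of 28.6 CPM in C1qb-high and 0.966 CPM in C1qb-low cells (difference 5.65, SE 0.72, adjusted p = 0.13). Tmem119, a marker of resident microglia, reached 10 CPM in 8 of 20 C1qb-high and 1 of 15 C1qb-low cells (difference 5.22, SE 1.58, adjusted p = 0.68). Most of these receptors sit at the surface of resting microglia and were near 0 in the typical C1qb-low harvest, with Csf1r the exception. The adaptor Tyrobp, which signals for Trem2, had at least 14.6 CPM in every C1qb-high cell and at most 48.1 CPM in any C1qb-low cell (difference 4.79, SE 0.65, adjusted p = 0.14). Trem2 itself had a median of 25.4 CPM in C1qb-high and 0.623 CPM in C1qb-low cells (difference 4.92, adjusted p = 0.38). Ctss, a lysosomal protease of microglia, had a median of 90.0 CPM in C1qb-high and 4.63 CPM in C1qb-low cells (difference 4.28, adjusted p = 0.31). The PU.1 gene Spi1 was low in most cells, with a median of 6.82 CPM in C1qb-high and 0.346 CPM in C1qb-low cells (difference 6.84, SE 1.16, adjusted p = 0.25).

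**Figure D2:**
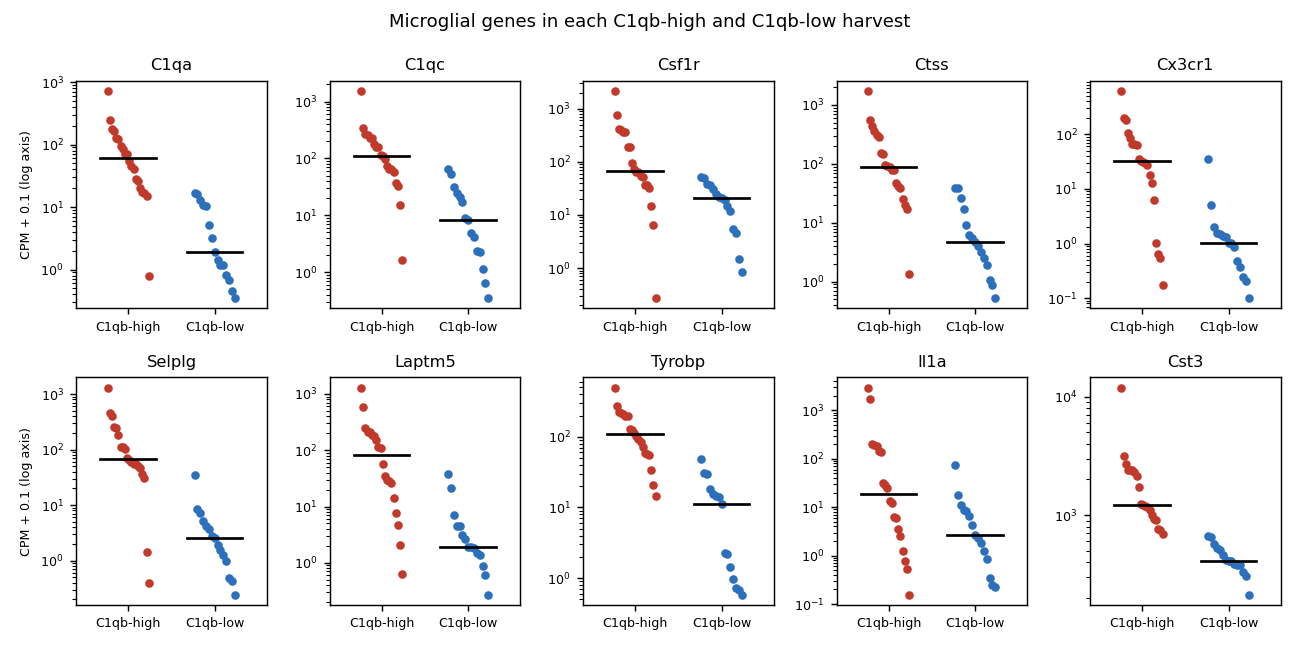
Genes of microglia and Cst3 in the 20 C1qb-high and 15 C1qb-low harvests; each point is 1 cell, the y axis is CPM + 0.1 on a log scale and the bar is the median. Cst3 separates the sides completely, while Il1a, Csf1r and Cx3cr1 overlap, and the female P40 cell 9 is the top point of every panel.

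Some markers on the lists differed little. Coro1a, an actin regulator of leukocytes that is on the signalling list, had a median of 111 CPM in C1qb-high and 94.2 CPM in C1qb-low cells. Ctsd, an aspartic protease found in the lysosomes of most cells, had a median of 810 CPM in C1qb-high and 544 CPM in C1qb-low cells (difference 0.89, adjusted p = 0.66).

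The C1qb-low harvests were not free of these transcripts. Counted over 46 microglial markers (the lists without the lysosomal one), C1qb-high cells had 8 to 40 markers at 10 CPM or more, with a median of 18.5, against 1 to 10 in C1qb-low cells, with a median of 6. The sides overlapped between 8 and 10 markers. The summed level of the 46 markers was 393 to 16163 CPM in C1qb-high cells, with a median of 1055 CPM, against 149 to 682 CPM in C1qb-low cells, with a median of 278 CPM. Csf1r reached 10 CPM in 11 of the 15 C1qb-low cells. The 19 cells between the limits had 3 to 17 markers at that level, with a median of 9.

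Genes whose level ran with C1qb over all 54 Pass cells were named by Spearman's rank correlation, over 13516 genes with a count in at least 20 cells (median -0.0047). The cells share their library preparation and differ in depth, and the correlation of C1qb with total counts was -0.22. The first was Cst3, the secreted protease inhibitor cystatin C, at 0.88. It was followed by Tyrobp at 0.81, Fcer1g at 0.79, Sepp1 at 0.77, Ccdc152 at 0.76, C1qa at 0.75, Ctss at 0.72, and C1qc and Rgs10 at 0.71. Sepp1, which encodes selenoprotein P, overlaps Ccdc152, and with no strand setting given the reads of the pair cannot be told apart.

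Cst3 had 690 to 11898 CPM in C1qb-high cells, with a median of 1221 CPM, against 214 to 665 CPM in C1qb-low cells, with a median of 410 CPM. Every C1qb-high cell thus lay above every C1qb-low cell, which held for 1 of the 13450 genes tested (0.00743%), and for 0 genes (0%) in the other direction. Its log2 difference in the pool sums was 2.27 (SE 0.32, adjusted p = 0.15). Cst3 is made by several brain cell types, and its base level of over 200 CPM in C1qb-low harvests sets it apart from the microglial receptors. Sparc, a secreted matrix protein, had a median of 176 CPM in C1qb-high and 29.8 CPM in C1qb-low cells (difference 2.54, SE 0.30, adjusted p = 0.11).

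Cytokines, chemokines and antigen presentation were uneven. The list of genes of activated microglia had 12 of 18 members tested, of which 10 had a positive difference and 1, Il1a, was called, with a median of 2.96. The chemokine Ccl4 had a median of 14.8 CPM in C1qb-high and 1.6 CPM in C1qb-low cells (difference 5.16, SE 0.79, adjusted p = 0.22). Itgax and Clec7a, which mark activated microglia near plaques, did not pass the filter on low counts. They had 0 counts in all C1qb-low cells, and 3 of the 18 genes of this list had 0 counts in all C1qb-high cells. Without that filter only 16 of the 18 genes had a count in the pool sums of either side. These zeros are therefore not read as a difference between the sides. The class I light chain B2m had a median of 30.0 CPM in C1qb-high and 1.14 CPM in C1qb-low cells (difference 5.41, SE 0.86, adjusted p = 0.23), and over the 6 tested genes of antigen presentation and interferon 5 were positive, with a median of 3.51, 2 higher at an unadjusted p under 0.05 and 0 called by edgeR (DESeq2 called 3). The class I heavy chain H2-K1 had 0 to 121 CPM in C1qb-high cells, against 0 to 12 CPM in C1qb-low cells, and its C1qb-high sum was the higher one in all 3 pools (difference 5.26, SE 1.23, adjusted p = 0.55). Its typical cell was near 0 on both sides, with medians of 0.194 CPM in C1qb-high and 0.354 CPM in C1qb-low cells, and 55.3% of its C1qb-high counts came from female P40 cell 9. The stress gene Atf3 had 0 to 1231 CPM in C1qb-high cells and 0.0346 to 41.5 CPM in C1qb-low cells (difference 5.14, adjusted p = 0.46), and 71.4% of its C1qb-high counts came from female P40 cell 9. The list that holds Atf3, immediate early and stress genes, had a median of -0.075. Of its 21 tested genes 12 were negative, with 2 higher and 2 lower at an unadjusted p under 0.05. edgeR called 0 of them, and DESeq2 called 2 higher and 1 lower.

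Markers of other immune cells were low. Border macrophages, which sit along vessels and meninges, were read from 8 genes, and Mrc1, Pf4, Cd163, Ms4a7 and Cbr2 had 0 counts in all 15 C1qb-low cells. In all 20 C1qb-high cells 3 of the 8 genes had 0 counts. A count of 0 allows up to 0.0139 CPM over the C1qb-low side and 0.0158 CPM over the C1qb-high side. The summed level of the 8 genes was 0.134 to 45.1 CPM in C1qb-high cells, with a median of 6.93 CPM, against 0 to 8.37 CPM in C1qb-low cells, with a median of 3.86 CPM, and 8 of the 20 C1qb-high cells lay above every C1qb-low cell. 1 of the 8 genes was tested and it was not called (difference 0.80). Mrc1 was 0 to 7.18 CPM in C1qb-high cells, with a count in 4 of 20. The summed level of 12 lymphocyte and granulocyte markers was at most 5.90 CPM in a C1qb-high and 0.675 CPM in a C1qb-low cell, and none of them passed the filter on low counts. The pan-leukocyte gene Ptprc reached 10 CPM in 4 C1qb-high cells and in 0 C1qb-low cells.

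Markers of other neighbouring cells had positive differences on most lists, and edgeR called none of them. Excitatory neurons, marked by the vesicular glutamate transporter Slc17a7, were read from 10 genes, of which 8 were tested. All 8 had positive differences, 5 at an unadjusted p under 0.05, and the median was 3.38. edgeR called 0 of them and DESeq2 called 6 higher. Slc17a7 had 0.431 to 409 CPM in C1qb-high cells, with a median of 29.9 CPM, against 0.178 to 32.8 CPM in C1qb-low cells, with a median of 2.99 CPM (difference 3.57, SE 0.87, adjusted p = 0.57). The list's median was 3.47 without the female P40 cell 9 (8 of 8 positive), 1.89 without the deepest cells (7 of 7), 1.42 with sides set by C1qa (6 of 8) and 1.09 with sides divided at 50 CPM (8 of 9, 0 at an unadjusted p under 0.05). Nrgn, a postsynaptic calmodulin-binding protein, had a difference of 2.74 and the layer transcription factor Fezf2 of 5.16, with adjusted p of 0.71 and 0.62.

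Oligodendrocyte markers had a median difference of 1.96, with 11 of 12 tested positive and 1 at an unadjusted p under 0.05. The median was 0.87 without the female P40 cell 9, and it turned to -0.59 without male P35 (4 of 12 positive). edgeR called 0 of them and DESeq2 called 1 higher. Their summed level was 232 to 8955 CPM in C1qb-high and 144 to 6144 CPM in C1qb-low cells. Mbp, the myelin basic protein, had a median of 410 CPM in C1qb-high and 187 CPM in C1qb-low cells. Astrocyte markers had a median difference of 0.75 (12 of 16 positive, 1 higher and 2 lower at an unadjusted p under 0.05, 0 called by edgeR), which was -0.12 without the cell of highest C1qb in each pool (5 of 16 positive). DESeq2 called 2 of them higher and 1 lower. Their summed level had a median of 1796 CPM in C1qb-high and 2146 CPM in C1qb-low cells. Haemoglobin and other red cell genes had a median difference of 2.70 (5 of 5 tested positive, 3 at an unadjusted p under 0.05), which was -0.43 with sides set by C1qa (2 of 5 positive). edgeR called 0 of these red cell genes and DESeq2 called 3 higher. Their summed level reached 29772 CPM in 1 C1qb-high cell, against at most 413 CPM in a C1qb-low cell. The mural cell list had a median of -0.55, with 1 of 3 tested positive and 0 called by edgeR, DESeq2 or limma. Of 11 endothelial genes only 3 passed the filter on low counts, which passes a gene through the side where it is high. These 3 were positive, with a median of 5.74 and 1 at an unadjusted p under 0.05 (0 called by edgeR, 2 by DESeq2). The summed level of the 11 had medians of 2.12 CPM in C1qb-high and 1.38 CPM in C1qb-low cells. Only 1 C1qb-high cell lay above every C1qb-low cell in that sum, and the tight junction gene Cldn5 had a median of 0 CPM on both sides. The part of these cell types in the differences of other genes was not tested.

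**Figure D3:**
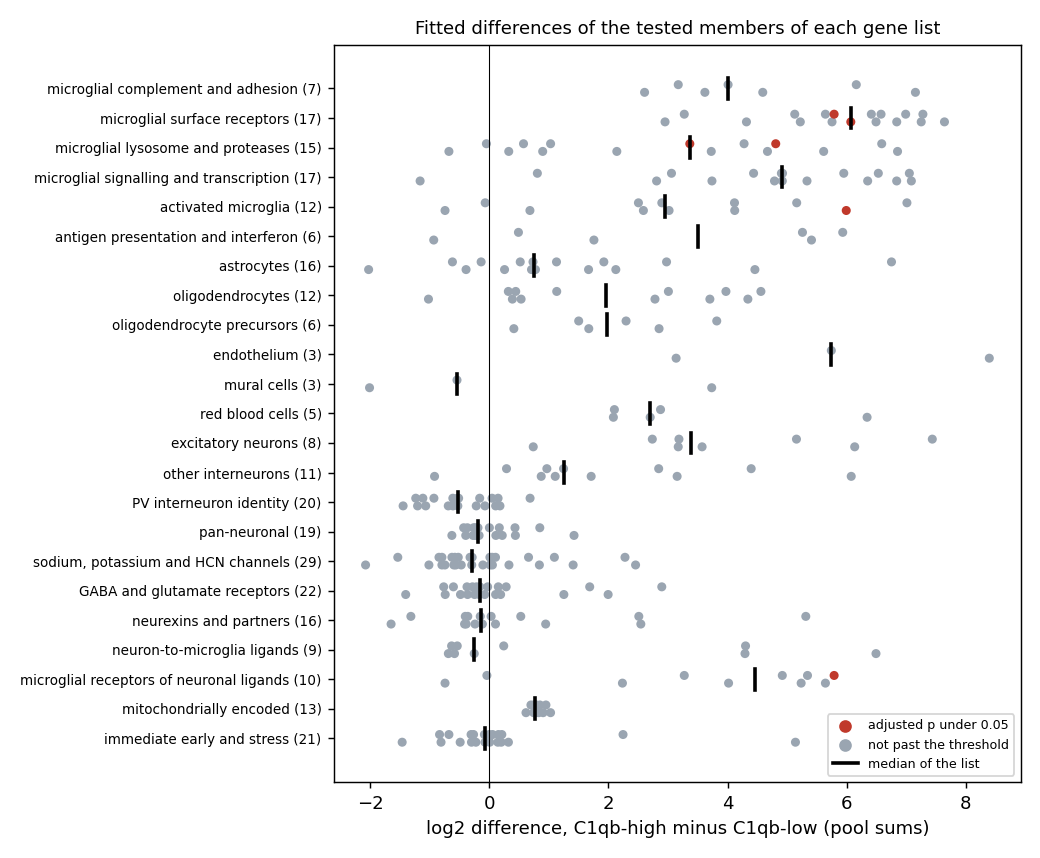
Log2 differences, C1qb-high minus C1qb-low, of the tested members of each gene list from the edgeR fit on pool sums; each point is 1 gene, red points passed adjusted p under 0.05, bars are list medians and numbers in brackets count the tested members. The microglial lists have medians between 3.37 and 6.07, the excitatory neuron list 3.38, and the 5 lists of neuronal genes between -0.53 and -0.14.

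edgeR called no gene of PV interneurons themselves in either direction, and DESeq2 called 1 lower, Abat. Of the 20 genes of PV interneuron identity, all were tested, 15 had negative differences, 5 of them (among them Gad1, Cplx1, Nefh and Abat) at an unadjusted p under 0.05, and the median was -0.53. Gad1, the enzyme that makes GABA, had 1531 to 6222 CPM in C1qb-high cells, with a median of 3329 CPM, against 1630 to 6751 CPM in C1qb-low cells, with a median of 3981 CPM (difference -0.61, SE 0.21, adjusted p = 0.77). Abat, the enzyme that breaks GABA down, had a median of 315 CPM in C1qb-high and 519 CPM in C1qb-low cells (difference -0.93, SE 0.20, adjusted p = 0.45). Complexin Cplx1, a clamp of vesicle release, had a median of 2356 CPM in C1qb-high and 2676 CPM in C1qb-low cells (difference -0.62, SE 0.18, adjusted p = 0.66). In single cells 8 of 20 C1qb-high cells lay below every C1qb-low cell in Cplx1, and 12 in Abat. The 46 microglial markers made up 1.62% of the counts of female P40 cell 9 and at most 0.415% in the other C1qb-high cells. These markers are only a part of microglial RNA, so the share does not measure all of it. In cell 9, C1qb (2593 CPM), Il1a (2928 CPM), Cd14 (2423 CPM) and Ctss (1698 CPM) lay outside them. The part of RNA from other cells in the differences of the PV interneuron genes was not tested.

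Pvalb and the fast-spiking channel Kcnc1 separated the sides only in part. Sst, a marker of another interneuron class, had more counts than Pvalb in 4 of 20 C1qb-high and 6 of 15 C1qb-low cells, as counts not divided by gene length. Sst (difference -0.92) was the 1 negative member among 11 tested markers of other interneurons. The other 10 were positive, 3 of them at an unadjusted p under 0.05, and the list's median was 1.24. edgeR called 0 of the 11 and DESeq2 called 3 higher. With sides set by C1qa the list's median was -0.48 (4 of 10 positive). Pvalb had 4.93 to 788 CPM in C1qb-high cells, with a median of 128 CPM, against 1.18 to 141 CPM in C1qb-low cells, with a median of 51.7 CPM. Pvalb was above every C1qb-low cell in 10 of 20 C1qb-high cells and below every C1qb-high cell in 2 of 15 C1qb-low cells. In the pool sums its values were 84.6, 25.1 and 197 CPM on the C1qb-high side, against 108, 45.2 and 66.1 CPM on the C1qb-low side, so it was lower in both male pools and higher in female P40 (difference 0.10, SE 0.53, adjusted p = 0.99). Kcnc1, a Kv3 channel subunit, had medians of 301 CPM in C1qb-high and 380 CPM in C1qb-low cells (difference -0.54, SE 0.24, adjusted p = 0.83). In Kcnc1, 5 of 20 C1qb-high cells lay below every C1qb-low cell.

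Genes shared by all neurons lay closer to 0. The 19 pan-neuronal genes tested had a median difference of -0.19, 12 of them negative, 1 higher and 2 lower at an unadjusted p under 0.05 and 0 called by edgeR or DESeq2. The vesicle fusion gene Snap25 had medians of 5532 CPM in C1qb-high and 5566 CPM in C1qb-low cells (difference -0.28, SE 0.14, adjusted p = 0.87). Sodium, potassium and HCN channels had a median of -0.30 (17 of 29 negative, 0 called by edgeR or DESeq2). The 5 channel genes with an unadjusted p under 0.05, all lower, included Scn1a, Kcna2, Kcnk3 and Kcnma1. GABA and glutamate receptors had a median of -0.17 (14 of 22 negative, 1 higher and 3 lower at an unadjusted p under 0.05) and neurexins with their partners -0.14 (9 of 16 negative, 0 at that level). edgeR called 0 genes of either list and DESeq2 called 1 receptor higher. Nrxn3 had a median of 205 CPM in C1qb-high and 212 CPM in C1qb-low cells, with full overlap.

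The neuronal ligands of the microglial receptors had differences near 0 or negative in most cases. Cx3cl1, the ligand of Cx3cr1, had 183 to 882 CPM in C1qb-high cells, with a median of 346 CPM, against 186 to 775 CPM in C1qb-low cells, with a median of 433 CPM (difference -0.54, SE 0.18, adjusted p = 0.77). Il34, a ligand of Csf1r made by neurons, had medians of 25.2 CPM in C1qb-high and 38.6 CPM in C1qb-low cells. Cd47, a signal against engulfment, had 340 CPM in C1qb-high and 375 CPM in C1qb-low cells. The other Csf1r ligand, Csf1, which microglia also make, had medians of 0.169 CPM in C1qb-high and 0.0644 CPM in C1qb-low cells (difference 4.30, SE 1.70, adjusted p = 0.80), and 82.3% of its C1qb-high counts were in female P40 cell 9. Pros1, protein S, a ligand of the TAM receptors, had medians of 0.0318 CPM in C1qb-high and 0.0359 CPM in C1qb-low cells but a difference of 6.50 in the sums (SE 1.91, adjusted p = 0.66), with 73.6% of its C1qb-high counts in female P40 cell 9. Over the lists, the 9 tested ligands had a median difference of -0.26, with 4 positive, 2 higher and 1 lower at an unadjusted p under 0.05 and 0 called by edgeR (DESeq2 called 3 higher), against 4.47 for 10 tested receptors with 1 called, Cx3cr1.

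**Figure D4:**
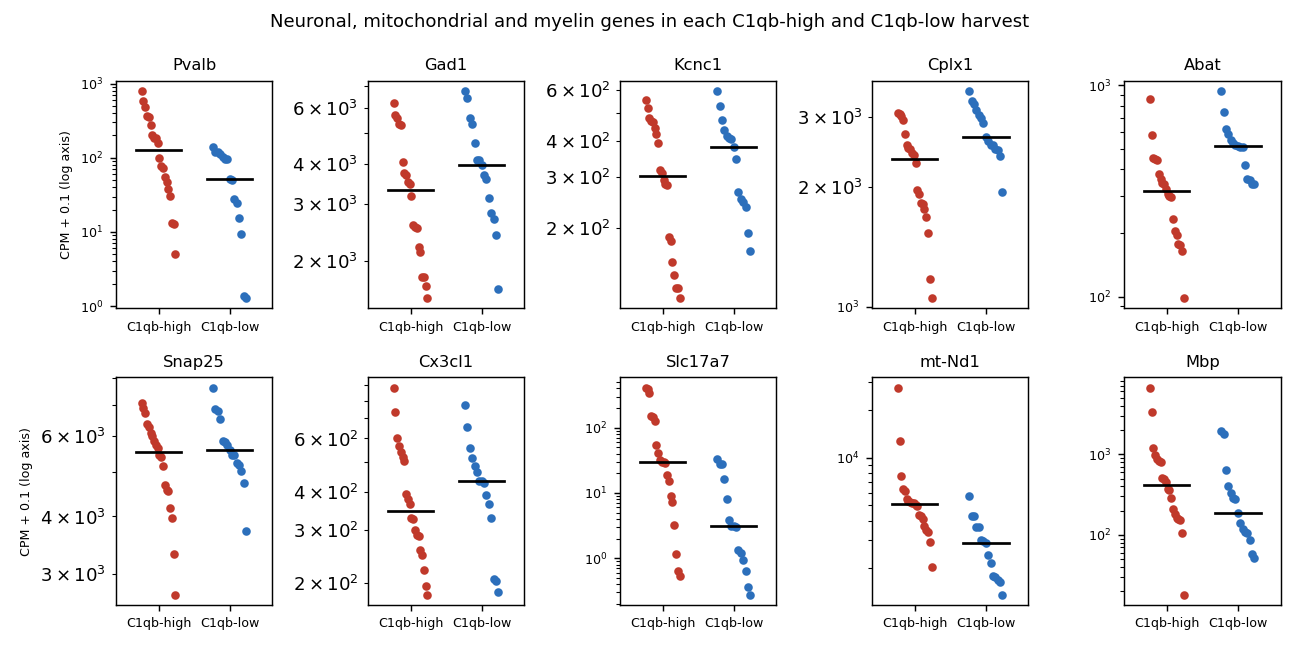
Neuronal genes, the mitochondrially encoded mt-Nd1 and the myelin gene Mbp in the 20 C1qb-high and 15 C1qb-low harvests; each point is 1 cell, the y axis is CPM + 0.1 on a log scale and the bar is the median. Gad1, Snap25 and Cx3cl1 overlap in most cells, 8 of the 20 C1qb-high cells lie below every C1qb-low cell in Cplx1, and Slc17a7 and mt-Nd1 have higher medians on the C1qb-high side.

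Mitochondrially encoded transcripts had small positive differences throughout. All 13 had positive differences, with a median of 0.77 and 8 at an unadjusted p under 0.05. edgeR called 0 of them, DESeq2 called 7 and limma on log2(CPM + 1) called 2. The median was 0.84 without the female P40 cell 9, 0.39 without cells with Sst above Pvalb and 0.33 with sides divided at 50 CPM, with 0 genes at an unadjusted p under 0.05 in both of the last, and 13 of 13 stayed positive in each. Their share of all counts was 0.824% to 10.9% in C1qb-high cells, with a median of 2.02%, against 0.663% to 2.26% in C1qb-low cells, with a median of 1.12%. Within pools these medians were 2.18% in C1qb-high and 1.45% in C1qb-low cells of male P35, and 1.57% and 0.766% in male P36. In female P40 they were closer, at 1.91% and 1.57%. mt-Nd1, a subunit of complex I, had 5085, 4193 and 6472 CPM in the C1qb-high sums, against 3402, 2026 and 4250 CPM in the C1qb-low sums (difference 0.75, SE 0.15, adjusted p = 0.38). Female P40 cell 15 alone had 27753 CPM of mt-Nd1, and the next highest C1qb-high cell had 12701 CPM. The female P40 sum leans on cell 15, to an extent that was not tested. mt-Co1, of complex IV, had a difference of 0.70 (SE 0.12, adjusted p = 0.30). Over the 54 Pass cells the mitochondrial share had a Spearman correlation of 0.57 with C1qb, as a description. A high share of such transcripts is one reading of RNA quality, and its part in the other differences was not tested.

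The genes of smallest p among those lower in C1qb-high harvests were not called by edgeR. Snrk, a kinase of the SNF1 family, had 98.7, 63.9 and 141 CPM in the C1qb-high sums, against 233, 157 and 389 CPM in the C1qb-low sums (difference -1.33, SE 0.24, adjusted p = 0.30). Cacfd1, a membrane protein, had medians of 43.9 CPM in C1qb-high and 106 CPM in C1qb-low cells (difference -2.22, SE 0.42, adjusted p = 0.36). The synaptic cadherin Clstn1 had a difference of -0.99 (SE 0.20, adjusted p = 0.38) and the ubiquitin ligase Rnf157 of -1.03 (SE 0.22, adjusted p = 0.46). In each of these genes the C1qb-high sum was the lower one in all 3 pools, while the single cells overlapped. DESeq2 called each of the 4, with adjusted p of 0.0011 for Snrk, 4e-05 for Cacfd1, 0.0057 for Clstn1 and 0.016 for Rnf157.

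Membrane values, which the sides did not use, are given in the labels as vrest, rm and cm with no unit, read here as resting potential, membrane resistance and membrane capacitance. Resting potential was -67 to -49 in 19 C1qb-high cells and -68.3 to -48 in 14 C1qb-low cells, with a median of -60 on both sides. Resistance was 146 to 654 in 19 C1qb-high cells, with a median of 307, against 100 to 509 in 13 C1qb-low cells, with a median of 233. Capacitance was 18 to 74 in C1qb-high cells, with a median of 38, against 25 to 102 in C1qb-low cells, with a median of 44. All 3 measures overlapped over most of their range.

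Only male P35 and male P36 had at least 2 cells with values on each side, so the exact sign-flip test over pools can reach no p below 0.5. In male P35 resistance was 396 ± 71.2 (SD, 6 cells) in C1qb-high and 212 ± 31.1 (SD, 2 cells) in C1qb-low cells, and in male P36 it was 346 ± 231 (SD, 2 cells) in C1qb-high and 264 ± 142 (SD, 8 cells) in C1qb-low cells. The mean rm difference over the pools was 133, two-sided exact permutation p = 0.5. Resting potential was -59.3 in C1qb-high and -63.2 in C1qb-low cells of male P35, but -60.5 in C1qb-high and -58.0 in C1qb-low cells of male P36, a vrest difference of 0.69 over both pools (exact permutation p = 1). Capacitance was 39.8 in C1qb-high and 48.0 in C1qb-low cells of male P35 and 50 in C1qb-high and 50.9 in C1qb-low cells of male P36, a cm difference of -4.52 (exact permutation p = 0.5). The direction of the vrest difference and of the cm difference depended on the limits and the pools used, and the rm difference was -1.21 with sides set by C1qa. Over the 49 cells with values, the Spearman correlation of C1qb was -0.01 with vrest, 0.22 with rm and -0.12 with cm, as a description.

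**Figure D5:**
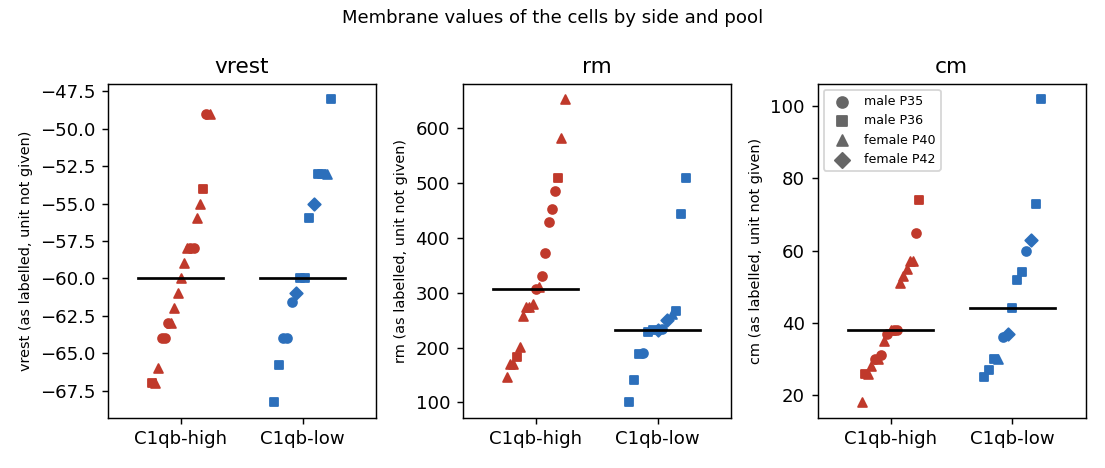
vrest, rm and cm as the labels give them, with no unit stated, in C1qb-high and C1qb-low cells; each point is 1 cell, its shape gives the pool and the bar is the median. The sides overlap in all 3 measures, with medians of -60 and -60 for vrest, 307 and 233 for rm, and 38 and 44 for cm.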

How the data were processed

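As the labels' protocols say, cytosol was taken up with a patch pipette, 1 library per cell, with a Nextera XT kit. Per the submitters' processing notes, the tools were STAR and edgeR and the build GRCm38. Which versions, counting tool, annotation and strand setting were used is not stated. The deposited table holds raw whole-number counts of 25648 genes in 58 cells, and all its columns matched a labelled cell. The deposited normalized and isoform tables were not used. The members and lists were chosen with earlier results of these data known.

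CPM were computed from each cell's total. Genes with a count in at least 10 cells of the sides that passed filterByExpr were tested with edgeR 4.0.16 in R 4.3.3, on sums per pool and side with at least 2 cells, TMM-normalized, with Benjamini-Hochberg adjustment. Standard errors are the absolute log2 difference over the square root of F. Levels of sums are CPM of the TMM-scaled total. The fit was also run on simulated pool sums with known changes. That simulation drew sums and not cells, so it says nothing on calls that rest on a single harvest. Alternatives used DESeq2 1.42.0, limma 3.58.1, other filters, limits and pools, and cells thinned to 2.05M counts. The named genes are those called, the 8 of smallest p in each direction with the same sign in every pool, the most abundant and smallest-p members of each list, a fixed set, and the 10 most like C1qb. Cells named singly were chosen after their values were seen. Gene coordinates come from GENCODE vM21 and promoter windows from RefSeq, both on GRCm38. Intervals and limits from counts cover counting error only. The 4 Fail cells entered no comparison. Some items are not reported here.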

Additional observations from a re-analysis of the deposited data

Results flagged for a closer look

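Within a pool and side of 4 to 10 cells, the highest or lowest cell was set against its neighbours in 26 groups of values (total counts, membrane values, 3 microglial markers and the called genes), and 8 stood far from the rest. Chance gives about 1 in 20 only for independent values without skew. CPM are skewed and 3 of the 8 come from 1 cell, so the count is a description and cannot be set against that rate. Among the 6 C1qb-high cells of male P35, cell 1 stood high with 299.8 CPM of Cd14 and 1705 CPM of Il1a, cell 5 with 575 CPM of Laptm5, and cell 6 with a cm of 65. Among the 8 C1qb-low cells of male P36, cell 2 stood high with 10.8 CPM of Cd14, and cell 6 with 34.6 CPM of Cx3cr1, 37.1 CPM of Laptm5 and 35.3 CPM of Selplg. The female P40 group of 11 cells is too large for this check, so its cell 9 is not among these.

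The 4 cells labelled Fail, which no comparison used, had 98.1, 31.9, 317 and 53.4 CPM of C1qb, each above every C1qb-low cell. They had 0.545 to 5.08M counts each.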

How the results depend on the processing

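Of the 39 genes named with a fitted difference and run under 18 alternative settings, 38 kept the sign of their difference in every setting that could give a value. Pvalb reversed, to -0.62 without female P40 (0.61 without male P36), -0.52 with sides divided at 50 CPM, -0.19 without the cell of highest C1qb in each pool and -0.53 without cells with Sst above Pvalb. The number of genes higher in C1qb-high harvests, 6 in all, depended on the setting, and the cause was not tested. It was 487 with DESeq2 (140 lower), 52 with sides set by C1qa, 19 with no filter on low counts, 15 with cells thinned to an equal total, 12 with all 4 pools at 1 cell a side or more, 11 with limma on log2(CPM + 1) and 3 without cells with Sst above Pvalb. It was 0 with limma on log2(CPM + 10), with sides divided at 50 CPM, without the cell of highest C1qb in each pool, without the deepest cells and without female P40 cell 9. Female P40 cell 9 was also the deepest C1qb-high cell of its pool. The settings without the cell of highest C1qb and without the deepest cells therefore left it out too. Leaving out each pool gave 0 to 19 genes (19 without male P35, 1 without male P36, 0 without female P40), and leaving out each of 32 cells gave 0 to 11. Genes lower stayed at 0 in every setting but DESeq2. Members of the microglial lists called, 4 in all, were 46 with DESeq2, 22 with sides by C1qa, 12 with no filter, 9 thinned, 8 with 4 pools, 2 without cells with Sst above Pvalb, 0 in the settings with 0 genes, 0 to 11 over pools left out and 0 to 7 over cells left out.

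The vrest difference reversed to -0.87 with no pool block, -1.75 with all pools of at least 1 cell a side, -2.77 with sides at 200 and 5 CPM, -0.73 with sides divided at 50 CPM and -2.49 without male P35, with a range of -2.49 to 3.87 over the pools left out. The rm difference reversed to -1.21 with sides by C1qa. The cm difference reversed to 0.56 with at least 1 cell a side and 2.29 with sides at 200 and 5 CPM. Those stricter sides left 1 pool and could not be fitted across genes. Replicate numbers only name cells: No paired analysis was possible because the labels pair no cells across the sides. Depth of 2.05M counts or more per cell limits the low genes, and the number of pools limits every test.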
